A study of Homo sapiens with 10 samples.

Results

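The 39 genes described here encode the machinery and supplies of DNA replication, most of them known targets of the E2F transcription factors, together with E2F1, E2F2 and the E cyclins CCNE1 and CCNE2. They were taken by symbol, and all 39 were present among the 25275 symbols of both deposited expression tables. The series concerns STAT3, a transcription factor activated by cytokine signalling, in OCI-LY10 and TMD8, established human cell lines of diffuse large B-cell lymphoma (DLBCL) of the activated B-cell type. Its 6 RNA-seq samples come from cells of each line transduced with 1 of 3 short hairpin RNAs (shRNAs): a control shRNA, STAT3 shRNA 10 or STAT3 shRNA 16. All 6 cultures, controls included, received doxycycline at 20 ng/ml for 2 days to induce the hairpin. Each shRNA has 1 library per line, so no condition has a second library, and nothing in the labels tells whether cells came from 1 transduction or several. The 3 OCI-LY10 libraries are named in their table. The 3 TMD8 columns bear no names, so they are given by position as columns 1 to 3 of that line and assigned to no shRNA. A further 4 samples, STAT3 ChIP-seq after 4 h with DMSO or the JAK inhibitor AZD1480, are not analysed here.

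Before S phase, the origin recognition complex with CDC6 and CDT1 loads the MCM2 to MCM7 ring onto DNA, and geminin (GMNN) blocks further loading. CDC45 and the GINS complex then join the ring to form the active helicase, and primase with the polymerases copies the strands behind it. Many of these genes are held off by RB proteins in G1 and transcribed when cyclin-dependent kinases, cyclin E among their partners, release E2F. Proliferating lymphoma lines keep this programme at high levels.

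Values are FPKM, fragments scaled for gene length and library size, as deposited, and therefore can be compared between genes of different length. The library labelled OCI-LY10 control did not resemble the other OCI-LY10 libraries. With small RNA genes set aside, 23227 genes gave a Pearson's r on log2(FPKM + 1) of 0.938 and 0.939 between it and the STAT3 shRNA 10 and 16 libraries, against 0.975, 0.977 and 0.985 between it and TMD8 columns 1, 2 and 3. Between the STAT3 shRNA libraries r was 0.997, and between TMD8 columns it was 0.993 to 0.997. TCL1A, a co-activator of AKT, stood at 474 FPKM in the library labelled control, 0.0396 and 0.108 with shRNA 10 and 16, and 589.5 to 600.2 in TMD8. CDH2, a cadherin, stood at 0.134 FPKM in the library labelled control, 94.7 and 107 with the STAT3 shRNAs, and was listed at 0 in all 3 TMD8 columns. By these genes the library labelled OCI-LY10 control lies with TMD8 and goes against its label. Every comparison with it below is between libraries as labelled, and an effect of STAT3 shRNA cannot be told apart from a difference between cell lines.

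STAT3 itself stood at 16.5 FPKM in the library labelled control, 11.1 with shRNA 10 and 10.6 with shRNA 16, and at 120.3, 24.3 and 22.5 FPKM in TMD8 columns 1, 2 and 3. The log2 change of STAT3, STAT3 shRNA libraries minus the library labelled control, was −0.56 (SE 0.10, limma adjusted p = 0.0465). That call was lost under 3 alternative settings (adjusted p up to 0.0901). All 5 T cell markers and all 5 myeloid markers lay under 1 FPKM in every library, with CD3D and CD2 listed at 0 in all 6. The summed level of 7 B cell markers was 838 FPKM in the library labelled control, 2386 and 2642 with the STAT3 shRNAs, and 802 to 958 in TMD8. The 7 were not uniform, though 6 had a log2 change above 0. CD79B went from 226 FPKM in the library labelled control to 1139 and 1226 with the STAT3 shRNAs, and PAX5 from 72.3 to 88.1 and 92.2. CD22 went the other way, from 62.1 to 23.0 and 29.3, against 79.4 to 95.8 in TMD8. Of 5 epithelial markers, CDH1 stood at 32.6 FPKM in the library labelled control, 0.0102 with shRNA 10 and a listed 0 with shRNA 16, against 15.8 to 17.2 in TMD8. EPCAM, of the same list, went the other way: it was listed at 0 in the library labelled control and in all 3 TMD8 columns, and stood at 4.39 FPKM with each STAT3 shRNA. KRT8 was at 1.96 FPKM in the library labelled control, 0.740 and 1.17 with the STAT3 shRNAs and 3.34 to 4.18 in TMD8, KRT18 was under 1 FPKM in all 6 libraries and KRT19 was listed at 0 in all. The summed level of the 5 was 34.8 FPKM in the library labelled control, 5.48 and 5.98 with the STAT3 shRNAs and 19.3 to 20.7 in TMD8. The summed level of 5 stromal markers was 6.57 FPKM in the library labelled control, 0.110 and 0.145 with the STAT3 shRNAs, and 5.003 to 6.73 in TMD8. Among them COL1A1, a collagen, was at 3.60 FPKM in the library labelled control, 0.00823 with shRNA 10 and a listed 0 with shRNA 16. Relative to shRNA 10, sequencing depth was 1.52 in the library labelled control and 0.731 with shRNA 16. Small RNA genes took 49.0% of summed FPKM in the library labelled control, 57.8% and 58.1% with the STAT3 shRNAs and 22.5% to 43.3% in TMD8. The part of any of these in the differences below was not tested.

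E2F proteins bind a short GC-rich element that lies close to the start of many replication genes. RefSeq promoters of build GRCh38.p14, 250 bases before to 50 after the annotated start, were matched by symbol for 35 of the 39 genes, all except MCM4, MCM5, GINS4 and CCNE2. On either strand, TTTCCCGC, TTTGGCGC, TTTGCCGC or TTTCGCGC occurred in 19 of these 35, or 54.3%. The same letters occurred in 3.33% of 27305 promoters of that length and in 4.23% of the 15523 whose symbol is in the expression tables. The CCAAT box (CCAAT) occurred in 18 of the 35, or 51.4%, against 35.7% of all promoters. The STAT element TTCNNNGAA occurred in 2 of the 35, PRIM1 and RFC2, or 5.71%, against 7.88% of all. In 1 promoter, that of MCM7, an E2F match overlapped a CCAAT match. These are matches of letters and say nothing of binding. The 39 genes were chosen as E2F-driven replication genes, so their share of E2F matches is no independent finding.

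The 250 bases before the start are shown for E2F1 and E2F2, the transcription factors of the group, and for GINS2 and TYMS, which among genes with a match before the start had the highest and lowest called change apart from E2F1 and E2F2. Capitals mark the E2F matches, and the sequences read 5′ to 3′ towards the start site. They lie at chr20:33686386-33686635 on the minus strand for E2F1, at chr1:23531234-23531483 on the minus strand for E2F2, at chr16:85688955-85689204 on the minus strand for GINS2 and at chr18:657403-657652 on the plus strand for TYMS (GRCh38.p14).
E2F1: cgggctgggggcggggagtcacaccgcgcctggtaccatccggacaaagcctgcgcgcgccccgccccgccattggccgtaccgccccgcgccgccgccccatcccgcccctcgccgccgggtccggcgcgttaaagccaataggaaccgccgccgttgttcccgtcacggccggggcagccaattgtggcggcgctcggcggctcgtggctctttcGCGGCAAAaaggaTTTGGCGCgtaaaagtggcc
E2F2: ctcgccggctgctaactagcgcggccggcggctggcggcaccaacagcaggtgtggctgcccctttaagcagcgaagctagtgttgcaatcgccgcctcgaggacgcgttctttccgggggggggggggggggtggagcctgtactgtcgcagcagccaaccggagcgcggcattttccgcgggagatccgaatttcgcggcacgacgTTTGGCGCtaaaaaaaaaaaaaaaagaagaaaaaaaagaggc
GINS2: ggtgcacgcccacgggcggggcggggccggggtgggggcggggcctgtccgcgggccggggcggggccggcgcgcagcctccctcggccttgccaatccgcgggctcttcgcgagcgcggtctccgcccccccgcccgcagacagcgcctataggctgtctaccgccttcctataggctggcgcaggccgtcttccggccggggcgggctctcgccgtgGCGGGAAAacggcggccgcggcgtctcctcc
TYMS: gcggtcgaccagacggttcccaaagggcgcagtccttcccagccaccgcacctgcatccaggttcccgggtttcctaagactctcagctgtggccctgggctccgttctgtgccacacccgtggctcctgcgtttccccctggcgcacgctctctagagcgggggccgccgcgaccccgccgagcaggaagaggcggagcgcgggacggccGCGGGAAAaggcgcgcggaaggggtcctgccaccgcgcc

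The first bases of the 2 matches of E2F1 lie 33 and 20 bases before its start, those of E2F2 42, of GINS2 31 and of TYMS 39 bases before theirs. Of the 19 genes with an E2F match, 6 were called higher and 2 lower in the STAT3 shRNA libraries as described below, against 20.3% and 17.4% of all tested genes, with a median log2 change of 0.20. Among the 16 without one, 5 were called higher and 1 lower, with a median of 0.28.

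Against the library labelled control, more of the replication genes were higher than lower in the STAT3 shRNA libraries. MCM2, MCM3, GINS2, GINS4, POLD1, RFC4, LIG1, RRM2, TK1, CHAF1A, E2F1, E2F2 and CCNE2 rose, and POLE, TYMS and CCNE1 fell, as judged by limma with an adjusted p below 0.05. That is 13 of 39 higher, against 20.3% of the 11162 genes tested, and 3 of 39 lower, against 17.4%. The remaining 23 genes did not pass. The log2 change was above 0 in 32 of 39, with a median of 0.32, against a median of 0.06 over all tested genes. With FPKM rescaled to the same sum outside small RNA genes the median of all tested genes was 0.19 and that of the 39 genes 0.46. Without a test, 13 genes were at least 1.5-fold higher on FPKM + 1 with both shRNAs, against 20.1% of tested genes, and 3 at least 1.5-fold lower, against 17.2%. These sets differ from the called ones in that UHRF1 and GMNN enter and POLD1 and POLE leave. The test set 2 libraries of different shRNAs against 1 library and assumed for the latter the spread seen between the former. In bulk RNA, more cells in S phase and more RNA per cell cannot be told apart.

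**Figure D1:**
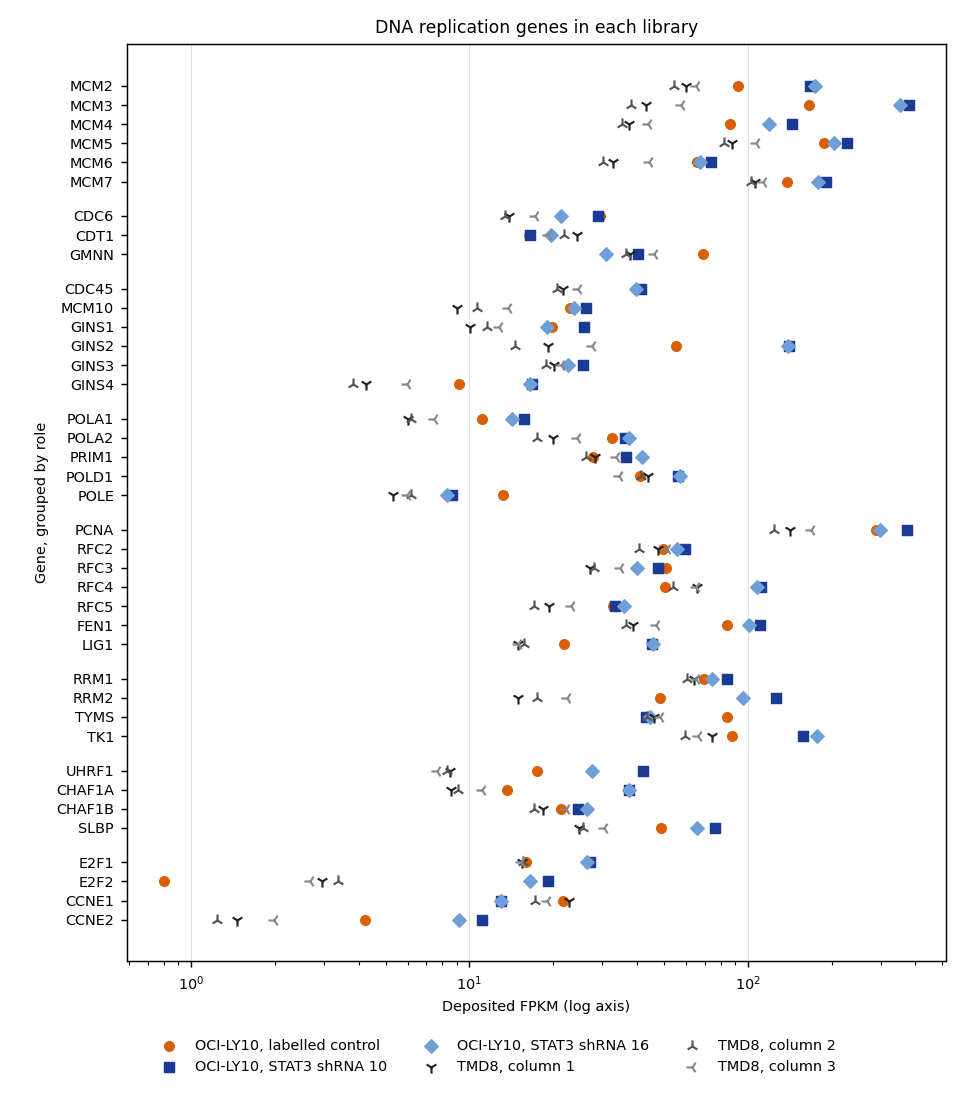
Deposited FPKM (log axis) of the 39 genes, grouped by role from the MCM ring at the top to E2F factors and E cyclins at the bottom; each marker is 1 library. The STAT3 shRNA libraries (blue) lie to the right of the 3 TMD8 columns (grey) for 35 of 39 genes, against 38.5% of 11794 genes, and E2F2 stands at 0.799 FPKM in the library labelled control (orange).

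**Figure D2:**
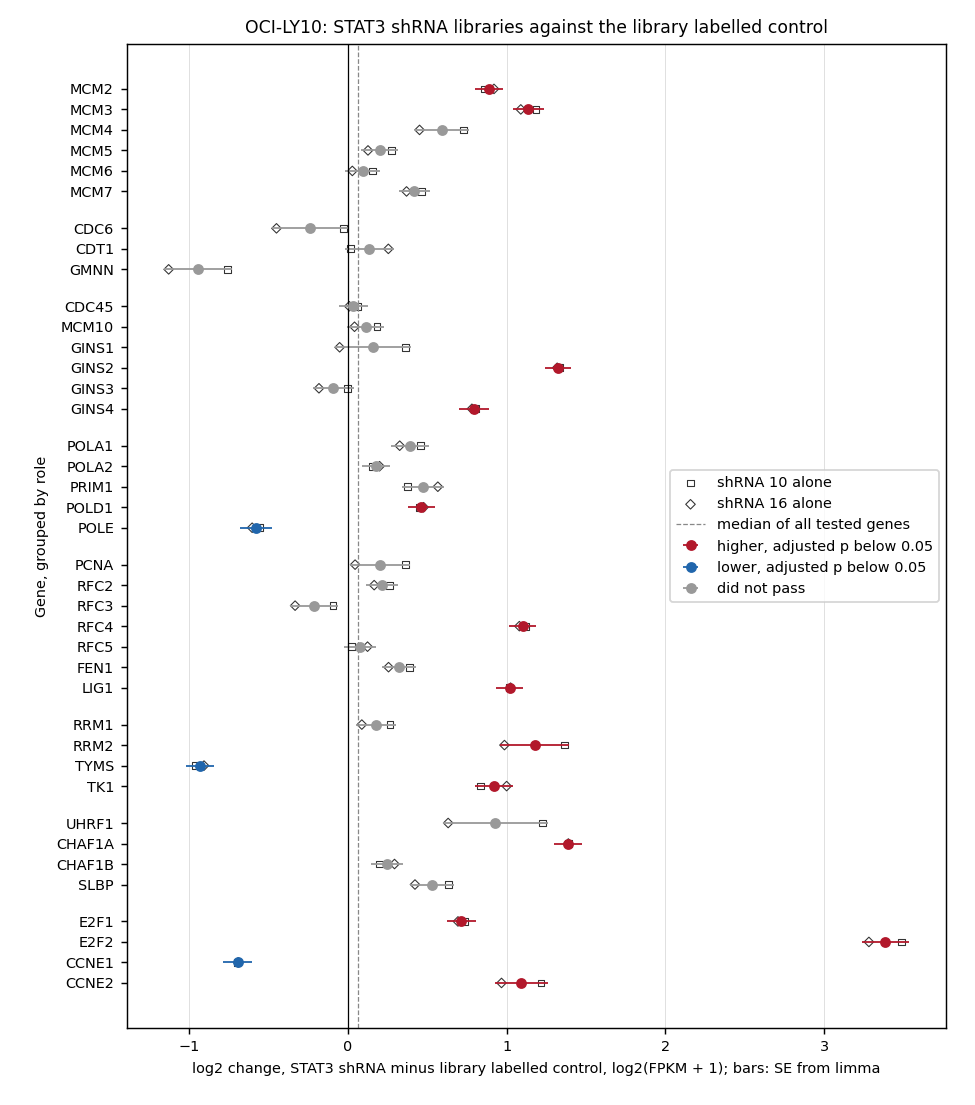
Log2 change of each gene on the log2(FPKM + 1) scale, STAT3 shRNA libraries minus the library labelled control, with the limma standard error; open squares and diamonds are shRNA 10 and shRNA 16 alone. The 13 genes in red and 3 in blue passed, E2F2 at 3.38 lies furthest to the right, and the dashed line marks 0.06, the median of all tested genes.

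The 6 subunits of the MCM ring were all at or above the level of the library labelled control in both STAT3 shRNA libraries, and 2 of them, MCM2 and MCM3, rose. MCM3 stood at 166 FPKM in the library labelled control, 378 with shRNA 10 and 353 with shRNA 16, and at 43.0, 38.0 and 57.7 in TMD8. The 3 groups do not overlap, with TMD8 lowest. MCM3 rose by a log2 change of 1.14 (SE 0.10, adjusted p = 0.0180), a ratio of 2.21. MCM2 stood at 91.8 FPKM in the library labelled control, 168 and 175 with the STAT3 shRNAs, and 59.9, 54.4 and 64.9 in TMD8, in the same order. Its log2 change was 0.89 (SE 0.09, adjusted p = 0.0207).

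The other MCM subunits did not pass. MCM7 was at 138 FPKM against 191 and 179 (adjusted p = 0.0677), and MCM4 at 86.5 against 144 and 119 (adjusted p = 0.0938). MCM5 was at 187 against 227 and 205, and MCM6 at 65.8 against 73.5 and 67.2 (adjusted p = 0.264 and 0.535). The subunits enter the ring in equal number, yet their transcripts were unequal in every library. MCM6 was the lowest subunit in 5 libraries and MCM4 in TMD8 column 3. The highest was MCM5 in the library labelled control, MCM3 in both STAT3 shRNA libraries and MCM7 in all 3 TMD8 columns. The ratio of the highest to the lowest subunit was 2.85 in the library labelled control, 5.14 and 5.26 with shRNA 10 and 16, and 3.24, 3.41 and 2.57 in TMD8.

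Of the genes that load the ring, none was called by limma, with 0 higher and 1 lower (GMNN) at an unadjusted p below 0.05. Of the 11162 tested genes, 3241 were higher and 2603 lower at that unadjusted threshold. GMNN, the inhibitor of loading, was at 69.0 FPKM in the library labelled control, 40.4 with shRNA 10 and 31.0 with shRNA 16, against 37.7, 36.4 and 45.8 in TMD8. The library labelled control is the highest of the 6, and the STAT3 shRNA libraries overlap with TMD8 (log2 change −0.94, SE 0.21, adjusted p = 0.0649). CDC6, which recruits the ring, was at 29.5 FPKM in the library labelled control, 28.9 and 21.4 with the STAT3 shRNAs and 13.4 to 17.2 in TMD8. CDT1, its partner in loading, was at 16.3 FPKM in the library labelled control and 16.5 and 19.6 with the STAT3 shRNAs. In TMD8 it was at 19.1 to 24.3 FPKM. CDT1 is 1 of 3 genes, with E2F2 and RFC4, whose level in the library labelled control lay below all 3 TMD8 columns.

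Among genes that activate the helicase, 2 of the 4 GINS subunits rose while the others did not pass. GINS2 stood at 55.3 FPKM in the library labelled control, 141 with shRNA 10 and 139 with shRNA 16, and 19.1, 14.6 and 27.6 in TMD8, with no overlap between the 3 groups. GINS2 rose by a log2 change of 1.32 (SE 0.08, adjusted p = 0.0128), a ratio of 2.53. GINS4 stood at 9.20 FPKM, 16.8 and 16.5 in the same order, and 4.26, 3.81 and 5.96 in TMD8. Its log2 change was 0.79 (SE 0.10, adjusted p = 0.0260), and its groups do not overlap either.

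GINS3 was at 25.7, 25.6 and 22.5 FPKM in the library labelled control, shRNA 10 and shRNA 16 libraries, and GINS1 at 19.8, 25.7 and 19.0. CDC45, the other helicase partner, was at 39.5 FPKM against 41.3 and 39.7, and MCM10, which helps to start unwinding, at 23.0 against 26.3 and 23.7. The 4 genes had log2 changes from −0.09 to 0.16 and adjusted p from 0.494 to 0.774. All 6 activation genes lay above the TMD8 columns in all 3 OCI-LY10 libraries, against 21.3% of 11794 genes.

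Polymerase genes went opposite ways. POLD1, the catalytic subunit of polymerase delta, stood at 40.9 FPKM in the library labelled control, 56.1 and 57.3 with the STAT3 shRNAs, and 43.7, 41.4 and 34.5 in TMD8. The library labelled control lies inside the TMD8 range (log2 change 0.46, SE 0.09, adjusted p = 0.0469). POLE, the catalytic subunit of polymerase epsilon, stood at 13.2 FPKM against 8.66 and 8.34, and 5.33, 6.16 and 5.97 in TMD8. Here TMD8 is lowest and the library labelled control highest (log2 change −0.58, SE 0.10, adjusted p = 0.0437). Both calls are near the threshold: that of POLD1 was lost under 5 of the 9 alternative settings with a test (adjusted p up to 0.0692), and that of POLE under 2 (up to 0.0798). POLA1, the catalytic subunit of the priming polymerase, was at 11.1 FPKM against 15.7 and 14.2, its partner POLA2 at 32.5 against 36.3 and 37.5, and the primase gene PRIM1 at 27.8 against 36.5 and 41.7. None of these 3 passed (adjusted p = 0.101, 0.221 and 0.0902).

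Of the sliding clamp, its loader and the enzymes that finish the lagging strand, RFC4 and LIG1 rose. RFC4, a subunit of the clamp loader, stood at 50.6 FPKM in the library labelled control, 111 and 108 with the STAT3 shRNAs, and 65.5, 53.7 and 65.2 in TMD8. The library labelled control is the lowest of the 6 (log2 change 1.10, SE 0.09, adjusted p = 0.0159). LIG1, the ligase that joins lagging-strand fragments, stood at 21.9 FPKM, 45.3 and 45.7, and at 14.9, 15.7 and 14.9 in TMD8. Its log2 change was 1.02 (SE 0.09, adjusted p = 0.0173), and the 3 groups do not overlap.

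The other loader subunits stayed within a narrow span, with log2 changes of 0.22 for RFC2, −0.21 for RFC3 and 0.07 for RFC5 (adjusted p = 0.194, 0.347 and 0.591). PCNA, the clamp itself, was the most abundant of the 39 genes in the library labelled control and in every TMD8 column. It stood at 289.6 FPKM in the former, 372 with shRNA 10 and 299 with shRNA 16, and 142, 124 and 168 in TMD8 (adjusted p = 0.452). FEN1, the flap endonuclease, was at 84.3 FPKM against 111 and 101, and 36.4 to 46.9 in TMD8 (adjusted p = 0.121).

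In nucleotide supply, RRM2 and TK1 rose and TYMS fell. RRM2, the regulated subunit of ribonucleotide reductase, stood at 48.2 FPKM in the library labelled control, 126 with shRNA 10 and 96.4 with shRNA 16, and 15.0, 17.5 and 22.3 in TMD8. Its log2 change was 1.18 (SE 0.22, adjusted p = 0.0475), and the call was lost under 4 settings (adjusted p up to 0.112). The partner subunit RRM1 was at 69.8 FPKM in the library labelled control and 84.1 and 74.2 with the STAT3 shRNAs (limma adjusted p = 0.345). In TMD8 it was at 60.4 to 65.4 FPKM.

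TK1, thymidine kinase of the salvage route, stood at 87.8 FPKM, 157 and 177, and at 74.5, 59.4 and 66.2 in TMD8. TK1 rose (log2 change 0.92, SE 0.12, adjusted p = 0.0288), but with no filter for low genes it did not pass (adjusted p = 0.0672). TYMS, thymidylate synthase of the de novo route, stood at 84.4 FPKM in the library labelled control, 43.0 and 44.6 with the STAT3 shRNAs, and 46.0, 43.6 and 48.5 in TMD8. Highest of the 6 is the library labelled control, and the STAT3 shRNA libraries overlap with TMD8 (log2 change −0.93, SE 0.09, adjusted p = 0.0198). TYMS overlaps ENOSF1 on the genome, and use of strand in counting is not given in the sources used here, so reads of the 2 genes may be mixed. By RefSeq gene positions, 18 of the 39 genes overlap another annotated gene. Of these, MCM7, GINS2, RFC5, TYMS, UHRF1, CHAF1A and CCNE2 overlap a protein-coding gene, and the rest only non-coding genes or pseudogenes. Whole gene spans were compared, without exons or strand, so how far reads are mixed is not known.

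For chromatin and histone supply, CHAF1A rose and UHRF1 varied between the shRNAs. CHAF1A, the large subunit of chromatin assembly factor 1, stood at 13.6 FPKM in the library labelled control, 37.3 with each STAT3 shRNA, and 8.56, 9.07 and 11.1 in TMD8. CHAF1A rose by a log2 change of 1.39 (SE 0.09, adjusted p = 0.0130), a ratio of 2.74. CHAF1B, the middle subunit, was at 21.3 FPKM against 24.6 and 26.4 and did not pass (adjusted p = 0.168).

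UHRF1, which brings maintenance DNA methylation to new strands, stood at 17.4 FPKM in the library labelled control, 42.1 with shRNA 10, 27.5 with shRNA 16, and 7.66 to 8.49 in TMD8. Both STAT3 shRNA libraries lie above the other 4, but at a log2 change of 0.93 (SE 0.33) it did not pass (adjusted p = 0.13). SLBP, which binds the stem-loop of histone messages, was at 48.8 FPKM against 76.1 and 65.7 (adjusted p = 0.0817).

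Of the regulators, E2F1, E2F2 and CCNE2 were higher and CCNE1 was lower in the STAT3 shRNA libraries. E2F2 stood at 0.799 FPKM in the library labelled control, 19.1 with shRNA 10 and 16.5 with shRNA 16, and 2.96, 3.37 and 2.68 in TMD8. It is lowest in the library labelled control, and the STAT3 shRNA libraries lie far above the rest. The log2 change was 3.38 (SE 0.15), the largest of the 39, and the ratio of mean FPKM was 22.3. E2F2 met the filter of a mean of 1 FPKM only through the STAT3 shRNA libraries, so its call is no independent support. With a pseudocount of 0.1 FPKM the log2 change was 4.31, and with 5 FPKM it was 1.97. E2F1 stood at 15.9 FPKM, 27.1 and 26.4, and at 15.5, 15.6 and 15.3 in TMD8. Both STAT3 shRNA libraries lie above the other 4, among which the library labelled control is the highest by a small margin (log2 change 0.71, SE 0.09, adjusted p = 0.0282).

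The E cyclins, which partner CDK2 at the entry to S phase, went opposite ways. CCNE1 stood at 21.6 FPKM in the library labelled control, 12.9 and 13.0 with the STAT3 shRNAs, and 22.8, 17.1 and 18.9 in TMD8. CCNE1 fell (log2 change −0.69, SE 0.09, adjusted p = 0.0299), and is the only 1 of the 39 genes at which both STAT3 shRNA libraries lay below all 4 others. CCNE2 stood at 4.20 FPKM, 11.1 and 9.18, and at 1.46, 1.24 and 1.99 in TMD8. It rose by 1.09 (SE 0.17, adjusted p = 0.0351), a call lost with no filter for low genes (adjusted p = 0.0842).

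Set against TMD8, the libraries labelled OCI-LY10 had high replication gene levels, the library labelled control among them. All 3 OCI-LY10 libraries lay above all 3 TMD8 columns for 29 of the 39 genes, against 21.3% of the 11794 genes that averaged 1 FPKM or more in either table. They lay below for 0 genes, against 26.9%. On its own, the library labelled control lay above TMD8 for 31 genes, against 33.4%, and below for 3, against 42.2%. Both STAT3 shRNA libraries lay above it and above TMD8 for 30 genes, against 32.8%, and below for CCNE1 alone, against 33.1%. The median ratio to the TMD8 median was 1.80 in the library labelled control and 1.94 for the mean of the STAT3 shRNA libraries, against 0.963 and 1.01 over all tested genes. The tables may have been normalized separately, so these counts carry no test. Since the library labelled control goes against its label, they are not read as a difference between the lines. With 3 other scalings of the 6 libraries the 3 counts of genes above TMD8 lay between 26 and 33.

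For comparison, other lists were counted in the same way. Of 67 other genes of replication and E2F control, all 3 OCI-LY10 libraries lay above TMD8 for 35 and below for 4. The library labelled control lay above TMD8 for 41 of the 67 and below for 14, and the median ratios were 1.25 and 1.58. Of 25 genes of G2 and mitosis, all 3 OCI-LY10 libraries lay above TMD8 for 1 and below for 13. The library labelled control lay below TMD8 for 20 of 25, with a median ratio of 0.812, and the STAT3 shRNA libraries had a median ratio of 0.822. TOP2A, the topoisomerase of mitotic chromosomes, was at 127 FPKM in the library labelled control, 116 with each STAT3 shRNA, and 164 to 195 in TMD8.

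**Figure D3:**
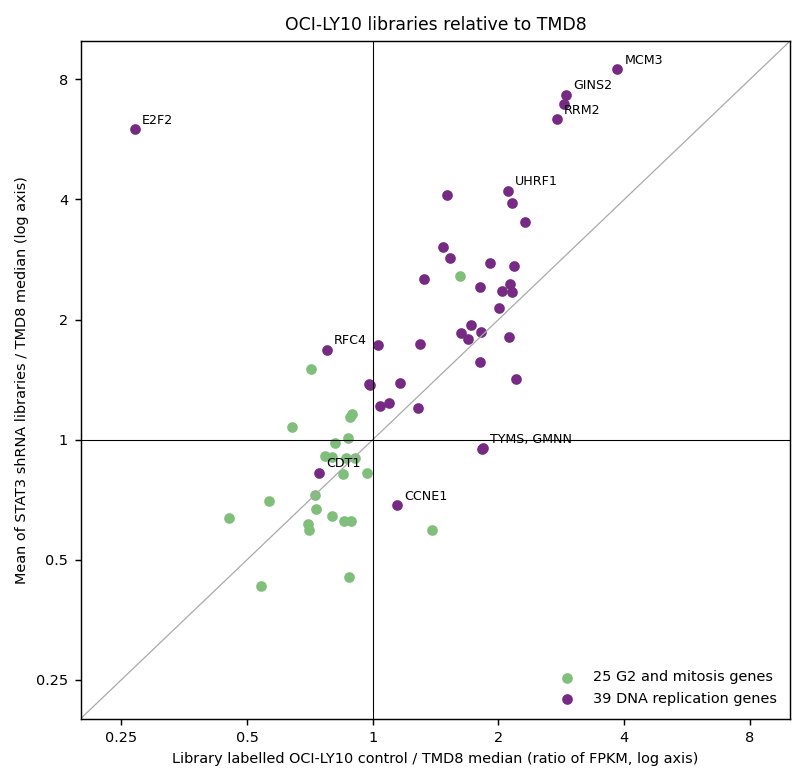
Ratio of FPKM to the median of the 3 TMD8 columns, for the library labelled OCI-LY10 control (x axis) and the mean of the 2 STAT3 shRNA libraries (y axis), both on log axes; each point is a gene. The 39 replication genes (purple) have median ratios of 1.80 and 1.94, the 25 G2 and mitosis genes (green) 0.812 and 0.822, and E2F2 stands alone at the upper left.

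Ratios between genes of the same library do not change when all its values are multiplied by 1 factor. Quantile normalization can change them. The pairs below were chosen after their values were seen and carry no test. The summed level of the 39 genes was 1.25 times that of the 25 G2 and mitosis genes in the library labelled control, 1.91 and 1.83 times with shRNA 10 and 16, and 0.612, 0.581 and 0.679 times in TMD8. The 3 groups do not overlap, and the library labelled control lies between the others. The 67 other genes of replication and E2F control, summed and set against the same 25, had the same order without overlap: 1.65 times in the library labelled control, 2.12 and 2.10 times with the STAT3 shRNAs, and 0.944 to 1.07 times in TMD8.

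E2F2 was at 0.0502 times the level of E2F1 in the library labelled control, 0.705 and 0.625 times with the STAT3 shRNAs, and 0.175 to 0.216 times in TMD8. CCNE2 to CCNE1 was 0.195 in the library labelled control, 0.857 and 0.705 with the STAT3 shRNAs, and 0.0641 to 0.105 in TMD8. RRM2 to RRM1 was 0.690 in the library labelled control, 1.496 and 1.298 with the STAT3 shRNAs, and 0.234 to 0.341 in TMD8. For the E cyclins and ribonucleotide reductase the library labelled control lay between TMD8 and the STAT3 shRNA libraries, and for the E2F pair it lay below both.

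The order was different for other pairs. TYMS to TK1 was 0.962 in the library labelled control, 0.273 and 0.253 with the STAT3 shRNAs, and 0.617 to 0.733 in TMD8. POLE to POLD1 was 0.323 in the library labelled control, 0.154 and 0.146 with the STAT3 shRNAs, and 0.122 to 0.173 in TMD8. CDT1 to GMNN, loader to inhibitor, was 0.236 in the library labelled control, 0.408 and 0.633 with the STAT3 shRNAs, and 0.417 to 0.643 in TMD8. In each of these pairs the library labelled control lies outside the range of the other 5. The STAT3 shRNA libraries lie within or next to the TMD8 range for POLE to POLD1 and CDT1 to GMNN, but below it for TYMS to TK1.

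**Figure D4:**
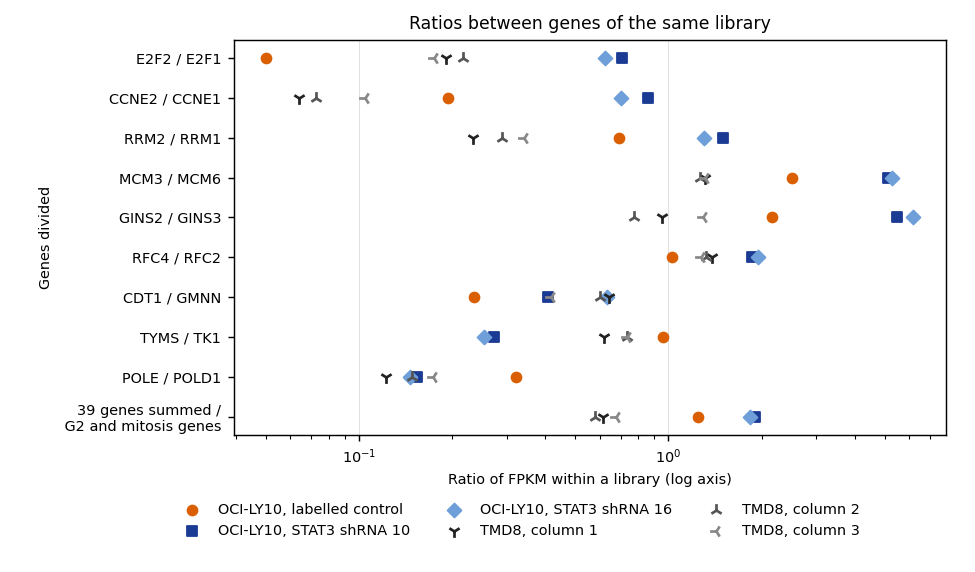
Ratio of FPKM between 2 genes, or of the summed 39 genes to the summed G2 and mitosis genes, within each of the 6 libraries (log axis). For E2F2 to E2F1 the library labelled control (orange) is lowest at 0.0502, and for MCM3 to MCM6 the libraries read 1.27 to 1.31 in TMD8, 2.52 in the library labelled control and 5.14 and 5.26 with the STAT3 shRNAs.

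Other genes of replication and E2F control, 67 in 6 lists, were read in the same fit. Shares of 20.3% higher and 17.4% lower over all tested genes are the background for the called counts of these and the following lists. For counts at an unadjusted p below 0.05 (limma), the background is 3241 higher and 2603 lower of the 11162 tested genes. Of the 67 genes, 21 were called higher and 3 lower in the STAT3 shRNA libraries, with 43 not passing and a median log2 change of 0.37. Of 9 other licensing genes 3 were higher and 0 lower (limma, with 3 and 2 at an unadjusted p below 0.05). ORC3, an origin recognition subunit, rose from 5.70 FPKM to 17.8 and 17.0, and MCM9, a relative of the ring subunits, from 1.59 to 3.76 and 3.65. Of 8 other origin firing genes 1, the helicase gene RECQL4, was higher, by 0.64 on the log2 scale, and 0 were lower, with 3 and 0 at an unadjusted p below 0.05.

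Of 18 other fork genes 6 were higher and 1 lower. RNASEH2A, which removes RNA from DNA, rose from 38.0 FPKM to 82.5 and 85.8, and CHTF18, of an alternative clamp loader, from 3.45 to 7.80 and 9.14. RPA3, of the single-strand binding complex, fell from 32.9 to 20.5 and 20.3 FPKM. Its partner RPA2 went from 26.9 to 63.1 and 49.8 (adjusted p = 0.0493), while RPA1, at 60.3 against 45.2 and 42.0, did not pass (adjusted p = 0.0617).

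Of 8 other nucleotide supply genes 3 were higher and 1 lower. SHMT1, a serine hydroxymethyltransferase of one-carbon metabolism, rose from 12.2 FPKM to 22.5 with each STAT3 shRNA. RRM2B, the reductase subunit known as a p53 target, fell from 12.7 to 7.28 and 8.06 FPKM. Of 7 other chromatin genes 3 were higher, namely RBBP4, ASF1B and DNMT1, and 0 were lower, with 4 and 0 at an unadjusted p below 0.05 (limma). RBBP4, a histone-binding subunit of chromatin assembly factor 1, rose from 17.3 FPKM to 42.4 and 39.5, and DNMT1, the maintenance DNA methyltransferase, from 51.7 to 70.0 and 71.8.

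Of 17 other E2F and G1/S control genes 5 were higher and 1 lower. TFDP1, the dimer partner of E2F proteins, rose from 144 FPKM to 296 and 294, and E2F5, a repressive family member, from 10.9 to 26.0 and 25.8. FBXO5, an inhibitor of the anaphase-promoting complex, rose by 1.06 and MYBL2, the gene of B-MYB, by 1.04 on the log2 scale. SKP2, a ubiquitin ligase subunit that targets p27, fell by 0.57. Activator E2F3, at 9.03 FPKM against 6.15 and 5.62, did not pass (adjusted p = 0.0593), nor did RB1, at 76.0 against 58.1 and 49.8 (adjusted p = 0.0965).

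The 25 G2 and mitosis genes were mostly not called, with 2 higher, 3 lower and a median log2 change of 0.01. FOXM1, a transcription factor of mitotic genes, rose by 1.05 and CCNF, a cyclin F-box protein, by 0.72. AURKB fell by 1.21, NUSAP1 by 0.95 and UBE2C by 0.50 on the log2 scale. MKI67, a proliferation marker, was at 38.5 FPKM in the library labelled control against 64.7 and 57.2, and did not pass (adjusted p = 0.0502). The difference between this list and the 39 genes was not tested.

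**Figure D5:**
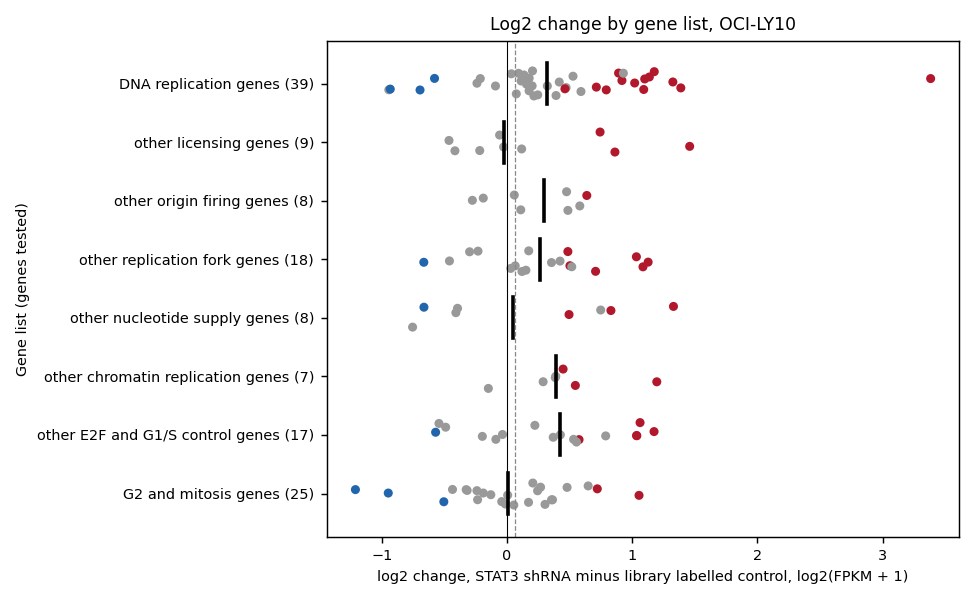
Log2 change, STAT3 shRNA libraries minus the library labelled control, for the 39 replication genes and 7 other lists; each point is a gene (red higher, blue lower, grey not passed), black bars are list medians and the dashed line is the median of all tested genes. Medians run from −0.03 for other licensing genes to 0.43 for other E2F and G1/S control genes, with 0.32 for the 39 genes and 0.01 for G2 and mitosis genes.

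Of the 2 STAT3 shRNA libraries, shRNA 16 was more often the lower. It lay below shRNA 10 for 27 of the 39 genes, against 49% of tested genes, with a median ratio of 0.935 against 1.00. The same held for 50 of the 67 other genes of replication and E2F control, with a median ratio of 0.933, and for 18 of the 25 G2 and mitosis genes, with a median ratio of 0.953. UHRF1 had the lowest ratio, 0.654, followed by CDC6 at 0.739, GINS1 at 0.740, RRM2 at 0.767 and GMNN at 0.768. CDT1 had the highest, 1.19. With 1 library each there is no test of this difference.

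Within TMD8, the highest column exceeded the lowest by more than 1.5 times for 5 of the 39 genes, against 17.9% of the 10888 genes that averaged 1 FPKM or more there. These were GINS2, with a ratio of 1.89, CCNE2 with 1.60, GINS4 with 1.57, MCM10 with 1.53 and MCM3 with 1.52. Column 3 was the highest of the 3 for 29 of the 39, against 44.8%, and for all 6 subunits of the MCM ring. The median ratio of column 3 to the mean of columns 1 and 2 was 1.21 for the 39 genes, 1.05 for the G2 and mitosis genes and 1.03 for all tested genes. STAT3 was at 120.3 FPKM in column 1, 24.3 in column 2 and 22.5 in column 3. Column 2 lay below column 1 for 28 of the 39 genes, against 48.7% of those 10888 genes, for example in CCNE1 (22.8 and 17.1 FPKM in columns 1 and 2) and TK1 (74.5 and 59.4), while MCM10 read 9.01 and 10.7. Small RNA genes took 22.5% of summed FPKM in column 1 and 28.7% in column 2. The count of column 2 against column 1 was not repeated under other scalings. Which column holds which shRNA is not known, so no effect of STAT3 shRNA is read from the TMD8 columns.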

How the data were processed

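RNA of 2 lymphoma lines was sequenced in 6 libraries, prepared with Illumina TruSeq RNA reagents according to the labels. The authors deposited FPKM values, 1 table per line. Per the submitters' processing notes, TopHat, Bowtie2 and hg19 were used; no version or order is listed. For the program behind FPKM, its annotation, its scaling and strand, the answer is "not given in the sources used here". FPKM gives no read totals: relative depth came from the commonest ratio between values under 0.1 FPKM, and no counting interval is given.

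Rows of 2 repeated symbols were summed. OCI-LY10 columns were matched to samples by name. The 3 unnamed TMD8 columns were assigned to the line through the table named in the samples' descriptions.

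Genes averaging 1 FPKM or more in OCI-LY10 (11162, with all 39 genes described) were fitted with limma 3.58.1 in R 4.3.3 on log2(FPKM + 1), with a mean-variance trend, two-sided, and Benjamini-Hochberg adjustment over all tested genes at 0.05. The fit set 2 STAT3 shRNA libraries against 1 library labelled control (1 residual and 1.64 prior degrees of freedom). Each p-value therefore rests on how far those 2 libraries lie apart, for the gene itself and, with more weight, pooled over all tested genes. Changes on this scale are understated for low genes. The script was tested on simulated data. TMD8 and comparisons across tables are described without a test. Alternatives were other pseudocounts (0.1 and 5 FPKM), filters, scalings, gene sets and variance priors. The 39 genes and other lists were chosen with earlier results of these data known. Of other lists, up to 2 called genes with the highest and 2 with the lowest change are named, besides genes named for comparison after their values were seen. The values of 1 gene that this rule names are not reported here.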

Additional observations from a re-analysis of the deposited data

How the results depend on the processing

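Over 9 alternative settings with a test, the count of replication genes called higher lay between 9 and 16, against 13. The count called lower lay between 2 and 4, against 3, and no called change reversed. Of all tested genes, 7.18% were called higher without the filter on low values and 26.3% with small RNA genes left out, against 20.3%. In the same settings 11.6% and 21.3% were called lower, against 17.4%. The other settings lay between these shares. Without the filter on low values 1299 genes of the table were called higher and 2101 lower, against 2263 and 1943, and 9 and 2 of the 39. POLD1, POLE, RRM2, TK1 and CCNE2 lost their calls under at least 1 setting. With small RNA genes left out, MCM4, MCM7, GMNN and SLBP passed (limma adjusted p = 0.0480, 0.0426, 0.0261 and 0.0440). PRIM1 passed with the same sum outside small RNA genes (0.0489). In these 2 settings 26.3% and 24.2% of tested genes were called higher, against 20.3%, and 21.3% and 14.4% lower, against 17.4%. The STAT3 call was lost under 3 settings, such as a pseudocount of 0.1 FPKM (adjusted p = 0.0508). The cause of these changes was not tested. Leaving out a STAT3 shRNA library allows no test and turned no called change; counts past 1.5-fold with the other shRNA were 13 to 15 higher and 3 to 4 lower. The count of genes over 1.5 times apart between TMD8 columns was 3 with median-of-ratios scaling and 3 with quantile normalization, against 5, and 0 to 4 with a column left out, lowest without column 3 and 1 without column 2. Genes with all OCI-LY10 libraries below TMD8 numbered 0 to 1 with a library left out: 1 without the library labelled control, without shRNA 16 or without TMD8 column 3. Genes with both STAT3 shRNA libraries below all others numbered 2 after quantile normalization, against 1. Scalings of the third TMD8 column, of shRNA 16 against shRNA 10 and of the TMD8 comparisons were chosen after seeing the data. No paired analysis was possible because each shRNA has 1 library per line and the TMD8 columns carry no names. Read totals are unknown, so what depth limits cannot be given per gene.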
